A study of Mus musculus with 3 samples.

Results

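The genes described here belong to the tumour necrosis factor (TNF) superfamily, the Toll-like receptors and the NF-kB signalling chain that both families feed. They were picked by a rule on gene symbols that uses no measured value, though the rule was written with earlier results of these data known, and number 70 genes on 107 rows of the array, of 10698 genes on 16281 rows in all. Kidney RNA came from BALB/c mice with anti-GBM glomerulonephritis, a model in which antibody given by injection settles on the glomerular basement membrane (GBM), the filter layer of the glomerulus, and sets off inflammation. There was 1 group of 3 such mice (numbers 11, 12 and 13) studied at day 1 after injection, each on its own 2-colour array with the red dye Cy5, and the green dye Cy3 carried a single pool of kidney RNA from 5 normal BALB/c mice on every array. Sex, age and antibody dose are not stated in the labels used here.

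TNF-family ligands bind trimeric receptors whose tails recruit TRAF and RIPK adaptors. Most Toll-like receptors, though not Tlr3, reach a similar set of kinases through Myd88 and the IRAK kinases. Both routes activate the IKK complex, which marks the inhibitory IkB proteins for destruction and frees the Rel-family subunits of NF-kB to enter the nucleus. NF-kB then switches on inflammatory genes together with its own inhibitors, so part of this gene set is also its target. In the kidney, TNF signalling is known from glomerular inflammation and tubular injury.

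Promoters of several members carry the kappaB consensus, the DNA motif that NF-kB binds, and these stretches are shown because the members that carry the motif were spread over all outcomes below. The 130 bases before the first annotated start are printed 5′ to 3′ from RefSeq (GRCm38.p6) on the strand of the gene. Bases inside a motif match are in capitals. Nfkb2 has 3 windows and Tnfaip3 has 2, and only the window of the first start is printed for each. Shown at the top is Nfkb2, an NF-kB subunit gene, at chr19:46304607-46304736 on the plus strand, with 3 matches that overlap in part. Nfkbia, the classical feedback inhibitor, is at chr12:55492648-55492777 on the minus strand, and Rel, another subunit gene, at chr11:23770970-23771099 on the minus strand. The inhibitor gene Nfkbie lies at chr17:45555570-45555699 on the plus strand. Windows of 3 further genes are from Tnip1, a binding partner of the deubiquitinase A20 (chr11:54962941-54963070, minus strand), Tnfaip3, which encodes A20 (chr10:19015411-19015540, minus strand), and Tnfaip2, a TNF-induced gene (chr12:111442531-111442660, plus strand). Tnfrsf12a (chr17:23677450-23677579, minus strand) had the highest mean of all measured members and has no match in its window.
Nfkb2: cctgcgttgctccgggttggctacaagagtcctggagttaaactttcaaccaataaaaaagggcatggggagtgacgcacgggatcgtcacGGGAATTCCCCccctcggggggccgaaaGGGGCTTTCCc
Nfkbia: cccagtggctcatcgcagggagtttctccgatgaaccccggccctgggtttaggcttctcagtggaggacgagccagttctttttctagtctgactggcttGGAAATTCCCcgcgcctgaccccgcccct
Rel: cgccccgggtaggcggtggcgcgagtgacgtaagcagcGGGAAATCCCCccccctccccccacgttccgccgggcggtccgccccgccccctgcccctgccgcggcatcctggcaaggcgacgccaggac
Nfkbie: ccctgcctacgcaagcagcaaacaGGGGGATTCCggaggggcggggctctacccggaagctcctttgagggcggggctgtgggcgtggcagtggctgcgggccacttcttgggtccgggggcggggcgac
Tnip1: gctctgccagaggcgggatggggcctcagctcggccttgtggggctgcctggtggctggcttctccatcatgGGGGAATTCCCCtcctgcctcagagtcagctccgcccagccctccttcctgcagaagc
Tnfaip3: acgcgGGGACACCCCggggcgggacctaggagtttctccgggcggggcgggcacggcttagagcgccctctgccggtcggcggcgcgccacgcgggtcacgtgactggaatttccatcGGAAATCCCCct
Tnfaip2: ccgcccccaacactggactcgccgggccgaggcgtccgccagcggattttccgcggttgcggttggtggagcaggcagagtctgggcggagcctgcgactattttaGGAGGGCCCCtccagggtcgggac
Tnfrsf12a: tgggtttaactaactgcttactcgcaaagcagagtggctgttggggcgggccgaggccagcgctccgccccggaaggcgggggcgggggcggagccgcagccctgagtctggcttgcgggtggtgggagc

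Both strands of the 250 bases before each start were searched. Of the 59 members with a RefSeq window, 15 (25.4%) held a kappaB match in at least 1 window, against 8.23% of all 27025 genes with a window. The AP-1 motif TGANTCA was held by 11 of the 59 members (18.6%) against 7.82% of all genes. Among members with a window, a kappaB match was present for 1 of 3 that were higher, 3 of 5 that were lower and 9 of 32 that failed the test. A match describes letters in the window and not binding, and windows of 1 gene can overlap.

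Values below are log ratios on the deposited scale, whose base is not stated, centred on the median of each array and given for mice 11, 12 and 13 in that order. Positive values are likely higher in anti-GBM kidney, because the labels place that RNA in Cy5 and red over green is the usual order, but the direction is not stated and every sign would turn if it ran the other way. An exact 0 was read as no estimate, and a gene counts as measured when at least 1 of its rows had a value on all 3 arrays. Calls are from a limma fit of the ratio against 0 over 7235 genes at an adjusted p under 0.05. The control is a single pool with no spread of its own, there was no dye swap, and in whole kidney fewer cells of a type and less RNA per cell cannot be told apart.

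Of the 70 genes, 48 were measured, 14 had values on 1 or 2 arrays only and 8 were listed at 0 throughout. Rows with values on all arrays made up 61 of 107 (57.0%), against 59.5% of the whole table. Receptors and Toll-like receptors were the least complete, with 10 of 28 and 4 of 11 rows measured on all arrays, while all 7 rows of the IkB family and all 4 rows of the Toll adaptors were.

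Among the 48 measured genes, 5 passed the test as higher, 6 as lower and 37 failed it. These counts are 10.4% and 12.5% of the members, against 9.48% higher and 9.97% lower (19.4% together) among all genes tested, so the share called was near that of the array as a whole. The median log ratio was 0.07, against -0.001 for all genes, and 30 of 48 means (62.5%) were above 0, against 49.7%. Most means were small, with 32 of 48 (66.7%) within 0.25 of 0, though this share was below the 75.7% of all genes. Only 3 means were beyond 0.5: Tnfrsf12a, Tnfrsf25 and Nfkbib. Signs were the same in all mice for 31 genes, 19 above 0 and 12 below, and were mixed for 17. Without Traf2 and Nfkbib, whose rows are treated apart further on, 5 of 46 were higher and 4 lower. Both were called lower, so the smaller lower count follows from leaving them out. Other members with rows that differ in sign, such as Tnf, Tnfaip3 and Nfkbiz, were kept.

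**Figure D1:**
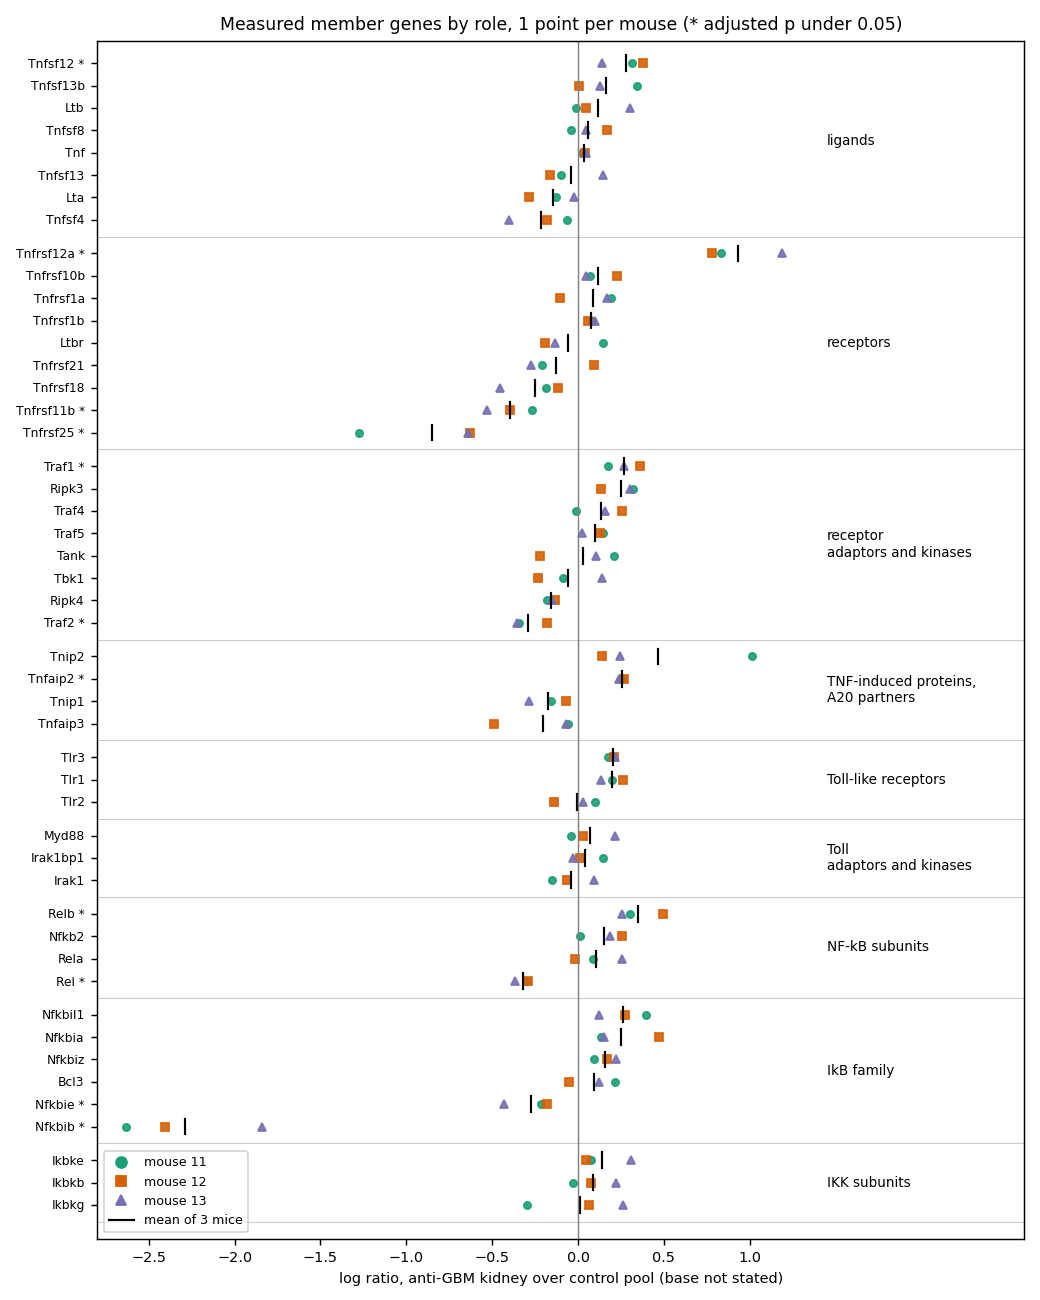
Log ratio of anti-GBM kidney over the control pool (horizontal axis, base not stated) for the 48 measured genes, grouped by role, with 1 point per mouse and a bar at the mean; a star marks the 11 genes past the test. Most genes lie within 0.5 of 0, with Tnfrsf12a at 0.93, Tnfrsf25 at -0.85 and Nfkbib at -2.29 standing off.

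The counts by role below stand beside 9.48% higher and 9.97% lower among all genes tested. Roles held only 3 to 9 measured genes each, so counts of 1 or 2 calls are not read as particular to a role. Receptors held 2 of the 3 members beyond 0.5, and of 9 measured receptors 1 was higher and 2 were lower. Tnfrsf12a, the receptor Fn14 for the cytokine TWEAK, read 0.83, 0.78 and 1.19. All mice were far above 0, and its mean of 0.93 ± 0.22 (SD, n = 3, adjusted p = 0.00165) ranked 39 from the top among 7235 genes. The mean corresponds to a 1.91-fold difference for base 2 or an 8.59-fold difference for base 10. The call held with any mouse left out (highest adjusted p 0.00299).

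Tnfrsf25, the death-domain receptor DR3, read -1.28, -0.63 and -0.64. Mouse 11 lay lower than the other mice, but all were below 0, with a mean of -0.85 ± 0.37 (adjusted p = 0.00689), and the gene ranked 37 from the bottom. Tnfrsf11b, which encodes osteoprotegerin, a secreted decoy for the ligands RANKL and TRAIL, read -0.27, -0.39 and -0.53. Its mean was -0.40 ± 0.13 (adjusted p = 0.0162). Both calls held with any mouse left out (highest adjusted p 0.013 and 0.047). A further row of Tnfrsf11b was listed at 0 on every array.

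The classical TNF receptors had means near 0 and did not pass. Tnfrsf1a, the main TNF receptor of parenchymal cells, read 0.19, -0.11 and 0.17, a mean of 0.09 ± 0.17 (adjusted p = 0.505). Tnfrsf1b, the second TNF receptor, was at 0.08, 0.06 and 0.10, with a small spread around a mean of 0.08 ± 0.02 (adjusted p = 0.449). The lymphotoxin receptor gene Ltbr read 0.15, -0.19 and -0.14, so mouse 11 alone was above 0 (mean -0.06 ± 0.18, adjusted p = 0.65). The remaining receptors that did not pass were the TRAIL receptor Tnfrsf10b (0.11 ± 0.10), the death receptor Tnfrsf21 (-0.13 ± 0.20) and the lymphocyte receptor Tnfrsf18 (-0.25 ± 0.18). Another row of Tnfrsf18 had 0.20 in mouse 12 and -0.35 in mouse 13, against -0.11 and -0.45 on the tested row. Its last row was listed at 0 on every array. Median values of the 9 receptors were 0.07, -0.11 and -0.14 in the 3 mice.

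Of 8 measured ligands, 1 was higher. Tnfsf12, which encodes TWEAK, the ligand of Tnfrsf12a, read 0.31, 0.38 and 0.14. All mice were above 0, but the mean of 0.28 ± 0.12 (adjusted p = 0.0449) was smaller than that of its receptor. The call ended without mouse 11 or 12 (adjusted p = 0.205 and 0.146). It also ended when the median of neighbouring rows was subtracted (adjusted p = 0.0706).

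Tnf itself did not pass. Its gene mean of 0.04 ± 0.01 (adjusted p = 0.729) averages 3 rows that disagree. The first row read 0.04, 0.14 and 0.18, the next -0.32, -0.34 and 0.18, and the last 0.35, 0.32 and -0.22. The latter rows run opposite to each other in every mouse, so their average is near 0 and the small SD of the gene mean does not describe the precision of any row. A row annotated to both Tnf and Lta, which stayed out of the gene fit, read -0.12, -0.12 and -0.20.

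Lta and Ltb, the lymphotoxin genes, were at -0.15 ± 0.13 and 0.11 ± 0.17. The B cell survival factor Tnfsf13b (BAFF) was at 0.16 ± 0.17 and its relative Tnfsf13 (APRIL) at -0.04 ± 0.16. The T cell costimulatory ligands Tnfsf4 and Tnfsf8 were at -0.22 ± 0.17 and 0.06 ± 0.10. None of these passed (adjusted p from 0.117 to 0.76).

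Receptor adaptors and kinases had 1 of 8 genes higher and 1 lower. Traf1, an adaptor that NF-kB itself induces, read 0.18, 0.36 and 0.27. Its mean was 0.27 ± 0.09 (adjusted p = 0.0432), its rows agreed in sign at 0.35 and 0.19, and its call ended with any mouse left out (highest adjusted p 0.145). The necroptosis kinase Ripk3, which drives a lytic form of cell death, read 0.32, 0.13 and 0.30 and just missed the threshold (0.25 ± 0.10, adjusted p = 0.0549).

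Traf2, the core adaptor of both TNF receptors, has a pair of rows annotated to the same GenBank record that disagree. The lower row read -0.70, -0.41 and -0.71 and passed at row level (mean -0.61 ± 0.17, adjusted p = 0.00522). The other read 0.02, 0.04 and -0.01 (mean 0.02 ± 0.02, adjusted p = 0.889). The groups of values do not overlap, so the gene mean of -0.29 ± 0.10 (adjusted p = 0.0341) matches neither row. Taking the row of smaller spread turned the gene to 0.02 (adjusted p = 0.868), and a further row had a value in mouse 13 alone, -0.22.

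The other adaptors and kinases did not pass. Traf4 and Traf5 were at 0.13 ± 0.14 and 0.10 ± 0.06, the kinase Ripk4 at -0.16 ± 0.02, the scaffold Tank at 0.03 ± 0.22 and the interferon-route kinase Tbk1 at -0.06 ± 0.19. The row of Traf6, the adaptor of the Toll and interleukin-1 receptors, was listed at 0 on all arrays. Ripk1 and Tradd were not analysed here.

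TNF-induced proteins and partners of A20 had 1 of 4 measured genes higher. Tnfaip2 read 0.26, 0.27 and 0.24, the most even values of the called members, with a mean of 0.26 ± 0.01 (adjusted p = 0.0405). Its call ended with any mouse left out (highest adjusted p 0.208), and its other row was listed at 0 on every array.

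Tnfaip3, which encodes the NF-kB brake A20, gave rows that differed. The lower row read -0.22, -0.71 and -0.34 and passed at row level (mean -0.42 ± 0.25, adjusted p = 0.0292), and the other read 0.11, -0.27 and 0.20 (mean 0.01 ± 0.25, adjusted p = 0.947). Mouse 12 was lowest on both rows, and the gene mean of -0.20 ± 0.24 did not pass (adjusted p = 0.185). The A20 partner Tnip2 read 1.01, 0.14 and 0.24. Its mean of 0.47 ± 0.48 (adjusted p = 0.0768) rests mostly on mouse 11, without which it was 0.19 (adjusted p = 0.365), and it passed without mouse 12 (adjusted p = 0.0317). Tnip1 was at -0.17 ± 0.11 (adjusted p = 0.147).

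None of the 3 measured Toll-like receptors passed. Tlr3, the receptor for double-stranded RNA, read 0.18, 0.21 and 0.22, and Tlr1, a partner of Tlr2 in lipopeptide sensing, read 0.20, 0.26 and 0.14. Both were above 0 in every mouse with means of 0.20 ± 0.02 and 0.20 ± 0.06 (adjusted p = 0.0799 and 0.0919). Tlr2 lay near 0 at 0.10, -0.14 and 0.03 (mean -0.004 ± 0.12, adjusted p = 0.973), and its rows were at 0.003 and -0.01.

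Tlr4, the endotoxin receptor, had no value in mouse 11. In mice 12 and 13 its first row read 0.04 and 0.22 and a further row -0.43 and -0.10, so the rows differ in sign. Tlr5 was listed with 0.13 in mouse 12 only, Tlr9 with 0.41 in mouse 13 only, and Tlr6 was at 0 on all arrays. Myd88, the adaptor of most Toll-like receptors, read -0.04, 0.03 and 0.21 (mean 0.07 ± 0.13, adjusted p = 0.566). The kinase Irak1 was at -0.04 ± 0.13 and Irak1bp1 at 0.04 ± 0.09.

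Among the NF-kB subunits 1 of 4 was higher and 1 was lower. Relb, the subunit of the non-canonical route, read 0.30, 0.50 and 0.26. Its mean was 0.35 ± 0.13 (adjusted p = 0.0238), and the call ended without mouse 11 or 12 (adjusted p = 0.0573 and 0.0764). Rel, the c-Rel subunit of lymphoid cells, read -0.30, -0.29 and -0.37. All values lie within a narrow band below 0, with a mean of -0.32 ± 0.04 (adjusted p = 0.022). The call ended without mouse 11 or 13 (adjusted p = 0.0947 and 0.0559), and the other row of Rel was listed at 0 on every array.

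Rela, the main transactivating subunit p65, read 0.09, -0.02 and 0.25 (mean 0.11 ± 0.14, adjusted p = 0.374). Nfkb2, the p100 precursor and partner of Relb, read 0.01, 0.26 and 0.19 (mean 0.15 ± 0.13, adjusted p = 0.213). Mouse 11 was nearest 0 for Nfkb2, which has 3 kappaB matches in the window printed above. Nfkb1 was not analysed here.

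Of the 6 IkB-family genes none was higher and 2 were lower, beside 9.48% higher and 9.97% lower among all genes tested. Nfkbie, the inhibitor IkB epsilon, read -0.22, -0.18 and -0.43. Its mean of -0.28 ± 0.13 (adjusted p = 0.0492) was just under the threshold, and the call ended with any mouse left out (highest adjusted p 0.141) and without centring (adjusted p = 0.0545).

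Nfkbia, the feedback inhibitor IkB alpha, read 0.13, 0.47 and 0.15. Mouse 12 stands off, and the mean of 0.25 ± 0.19 did not pass (adjusted p = 0.0875), though it did when the median of neighbouring rows was subtracted (0.30, adjusted p = 0.0414). Nfkbiz, a nuclear IkB protein, had rows at 0.32 ± 0.16 and -0.002 ± 0.07, of which the first passed at row level (adjusted p = 0.039) with 0.19, 0.27 and 0.51. Its gene mean was 0.16 ± 0.06 (adjusted p = 0.153). Bcl3, another nuclear member, was at 0.10 ± 0.14 and Nfkbil1 at 0.26 ± 0.14 (adjusted p = 0.0578). Nfkbil1 passed as higher when the median of neighbouring rows was subtracted (0.29, adjusted p = 0.033) and without mouse 13 (adjusted p = 0.0464).

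Nfkbib, the inhibitor IkB beta, has a single row that read -2.63, -2.40 and -1.84. Its mean of -2.29 ± 0.41 (adjusted p = 0.000226) was the lowest of all members, a 4.90-fold difference for base 2 or 196-fold for base 10, and the gene ranked 6 from the bottom of the array. Among 126 other rows measured on at least 2 arrays within 100 row numbers of it, 20 also had a mean below -1, against 68 of 11074 such rows in the whole table. The part of row position in this value was not tested. Rows of 4 other members lie in the same stretch. Relb, with 18 such neighbours, was at 0.35, the Tnf row with 18 was at 0.15, Tank with 17 was at 0.03, and Tnfrsf4, with 21, was at -0.23 in mouse 11, its only value. No row below -1 lies within 100 numbers of the rows of Tnfrsf12a, Tnfrsf25, Tnfrsf11b, Rel or the lower Traf2 row. For Tnfrsf12a, which was called higher, 2 rows with a mean above 1 lie within 100 numbers. How many such rows the whole table holds is not given here.

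IKK subunits, the kinases that phosphorylate IkB, did not pass. Ikbkb, the catalytic subunit of the canonical route, read -0.03, 0.08 and 0.22 (mean 0.09 ± 0.13, adjusted p = 0.447), and a further row of the same GenBank record was listed at 0.60 in mouse 11 and at 0 in the other mice. The scaffold gene Ikbkg (NEMO) read -0.30, 0.07 and 0.26, values on both sides of 0 with a mean of 0.01 ± 0.28 (adjusted p = 0.951). The related kinase Ikbke was at 0.14 ± 0.14. A further row of Ikbke had 0.70 in mouse 12 and 0.01 in mouse 13. On the rows measured on all arrays mouse 13 was the highest for each of these 3 genes, but not on these further rows of Ikbkb and Ikbke. Chuk was not analysed here.

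Rows of the same gene often disagreed. Of the 12 members with more than 1 row measured on all arrays, 4 had rows of the same sign and 8 did not, and the SD between rows exceeded the SD between mice for 7 of 12. Over all 1103 such genes on the array, 626 (56.8%) had rows of the same sign. The median distance between the highest and lowest row was 0.18 for these members and 0.17 for all genes. Counted by row, 6 of 61 member rows were higher and 6 were lower, against 9.55% and 10.1% (19.6% together) of all 9682 rows tested.

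**Figure D2:**
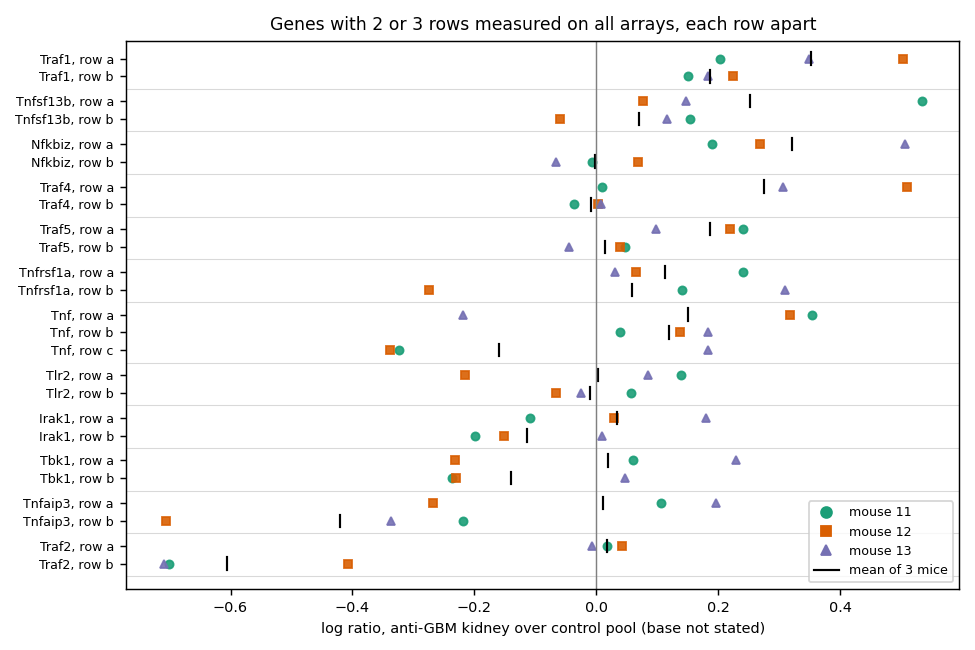
Log ratio of each row (horizontal axis, base not stated) for the 12 genes with 2 or 3 rows measured on all arrays, with 1 point per mouse and a bar at the row mean; rows of a gene are lettered from the highest mean. The rows of Traf2 lie apart at 0.02 and -0.61, and the highest and lowest rows of Tnf run opposite to each other in every mouse.

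The 11 calls differed in how far they rested on single mice. Those of Nfkbib, Tnfrsf12a, Tnfrsf25 and Tnfrsf11b held in all 3 refits that left out a mouse. The other 7, all with means within 0.5 of 0, lost their call in at least 1 refit, which has fewer arrays and can lose a call for that reason alone. In the fit that also took rows with values on 2 arrays, Traf1 (adjusted p = 0.0573), Tnfaip2 (0.0543), Tnfsf12 (0.059) and Nfkbie (0.064) were not past the threshold, and Tnfaip2 was not past it with the median of neighbouring rows subtracted (0.082) nor Traf1 with 1 row per gene (0.0903). Without the moderation of variances that limma adds, none of the 11 passed, and 13 of the 48 members had an unadjusted p under 0.05. No gene of the signalling and target lists read further on passed in that fit either. Its count over all genes is not given here, so these counts cannot be read as particular to the members.

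**Figure D3:**
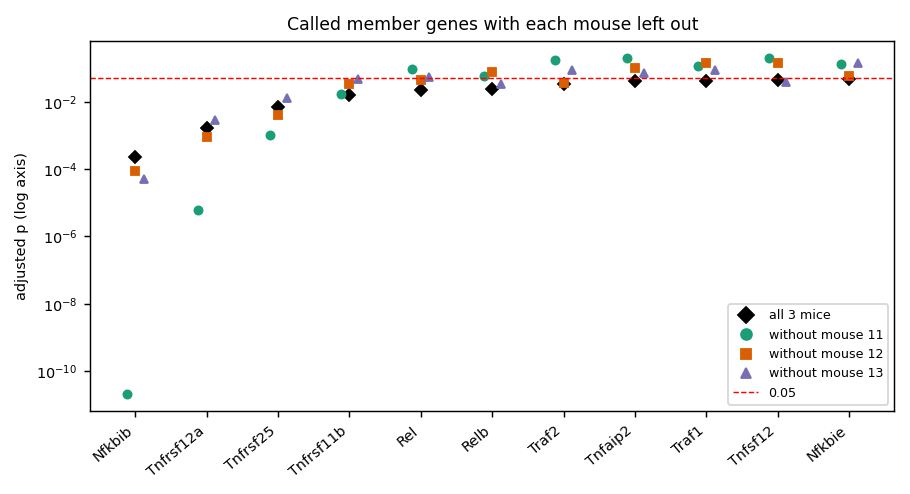
Adjusted p from limma (log axis) of the 11 called genes with all mice (diamonds) and with each mouse left out; the dashed line is the threshold of 0.05. Nfkbib, Tnfrsf12a, Tnfrsf25 and Tnfrsf11b stay under the line in every refit.

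The 14 genes with values on fewer than 3 arrays have no test. Tnfrsf17, the BCMA receptor of plasma cells, was at -0.25 and -0.39 in mice 11 and 12, and Tnfrsf4 (OX40) at -0.23 in mouse 11 alone. The RANK gene Tnfrsf11a read 0.46 in mouse 12 and -0.33 in mouse 13, and Tnfaip6, a hyaluronan-binding protein, 0.34 and -0.44 in the same mice. Tnfrsf8 (CD30) was at -0.16 and 0.24 in mice 12 and 13, and Tnfaip8l2 at 0.14 and -0.24 in mice 11 and 13. Values in a single mouse were 0.32 for Tnfaip1, -0.15 for Tnfaip8l1, -0.42 for Tnfsf14 (LIGHT), -0.10 for Tnfrsf22 and 0.41 for Tnfrsf23. In Tnfrsf11a, Tnfaip6, Tnfrsf8 and Tnfaip8l2 the mice differed in sign, and in Tnfrsf17 they did not. The genes listed at 0 throughout were the ligands Tnfsf9, Tnfsf10 (TRAIL) and Tnfsf11 (RANKL), the receptors Tnfrsf13b, Tnfrsf13c and Tnfrsf19, and Tlr6 and Traf6.

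Other genes of the same signalling routes were read from a list of 55, of which 42 had a row. Of 36 measured, 1 was higher, 4 were lower and 31 failed the test, beside 9.48% higher and 9.97% lower among all genes tested, and the median was -0.01, against -0.001 for all genes. The interferon regulator Irf7, downstream of the endosomal Toll-like receptors, read 0.98, 1.11 and 0.59 (mean 0.89 ± 0.27, adjusted p = 0.00306). Lower genes included the endotoxin-binding protein Lbp (-0.45 ± 0.11, adjusted p = 0.00971), the death receptor Fas (-0.36 ± 0.06, adjusted p = 0.0159) and the interleukin-18 receptor chain Il18r1 (-0.61 ± 0.38, adjusted p = 0.0214). The call of Fas ended when mouse 11 was left out (adjusted p = 0.0523). Il18r1 moved to -0.37 (adjusted p = 0.217) in the fit that also took rows with values on 2 arrays. The kinase Map3k7 (TAK1), which activates IKK, was at -1.45 ± 0.92 (adjusted p = 0.0145), with values from -2.38 to -0.55 and 17 rows below -1 within 100 row numbers. Ly96, the endotoxin co-receptor MD-2, was at -0.30 ± 0.18 (adjusted p = 0.0504) and passed as lower without mouse 12 (adjusted p = 0.0244).

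Known NF-kB target genes, a list chosen from textbook knowledge, had 12 of 27 measured genes higher, 2 lower and 13 not passing, with a median of 0.18. Among all genes tested 9.48% were higher and 9.97% lower, with a median of -0.001, and no gene of this list is among the 70 members. The serum amyloid gene Saa3 read 1.07, 1.37 and 0.93 (mean 1.12 ± 0.23, adjusted p = 0.000759). The AP-1 subunit Junb was at 0.70 ± 0.10, tissue factor F3 at 0.63 ± 0.06, the stress gene Gadd45b at 0.53 ± 0.08, the cytokine Il1b at 0.51 ± 0.05 and the mitochondrial superoxide dismutase Sod2 at 0.46 ± 0.03. All mice were above 0 for these 6 genes, and their calls held with any mouse left out. The lower genes were the protease Plau (-0.48 ± 0.07, adjusted p = 0.00686) and the chemokine Ccl2 (-0.37 ± 0.09, adjusted p = 0.0164). The call of Plau held with any mouse left out (highest adjusted p 0.0174), and that of Ccl2 did not (highest 0.0833). Many of these genes answer to other factors as well, so the count does not measure NF-kB activity.

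**Figure D4:**
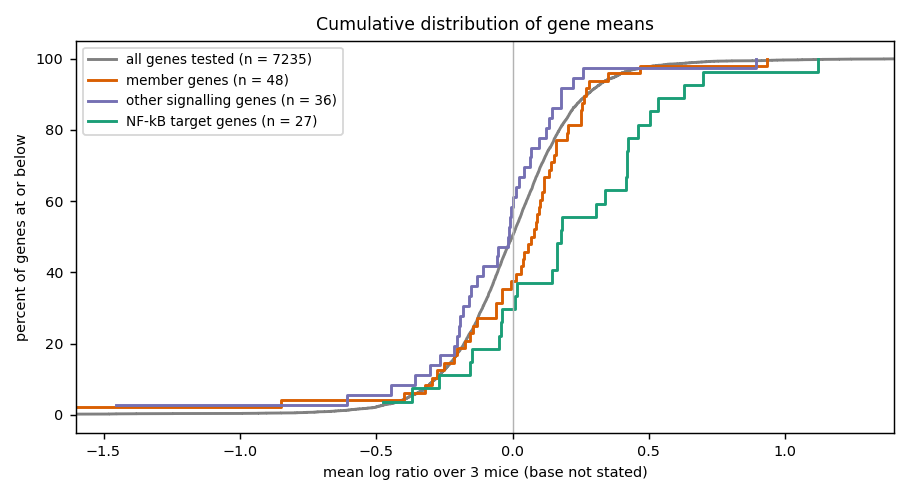
Percent of genes with a mean log ratio at or below the value on the horizontal axis (base not stated) for all 7235 genes tested, the 48 measured members, 36 other signalling genes and 27 NF-kB target genes. The curve of the members lies close to that of all genes, with medians of 0.07 and -0.001, and that of the target genes lies to the right, with a median of 0.18; the axis leaves out the lowest member, Nfkbib at -2.29.

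Leukocytes express many of these genes, and their markers were read on the same arrays. The marker counts below stand beside 9.48% higher and 9.97% lower among all genes tested, and several are near those shares. Macrophage markers had 5 of 11 measured genes higher and 1 lower, with medians of 0.20, 0.20 and 0.06 in the 3 mice. The lower gene was Csf1r at -0.72 ± 0.33 (adjusted p = 0.00919), the mean furthest from 0 in that list, and 8 of the 11 means were above 0. Neutrophil markers had 3 of 10 higher and 2 lower (medians 0.04, -0.01 and -0.09), and T and NK cell markers 2 of 5 higher and none lower (medians 0.34, 0.14 and 0.14). B and plasma cell markers had 3 of 5 lower and none higher, with medians of -0.43, -0.50 and -0.57. Sdc1 of the same list was above 0 in every mouse (0.21, 0.20 and 0.12) but did not pass. The lowest of these B cell markers, the kinase gene Btk at -2.14 ± 0.54, has 17 rows below -1 within 100 row numbers. Kidney tubule markers had none of 10 higher and 2 lower (median -0.03), podocyte markers 2 of 6 higher and 2 lower, and endothelial markers none of 8 higher and 1 lower. The part of these cells in the results above was not tested, and ratios do not show whether a marker is present, so the tissue label could not be checked by level.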

How the data were processed

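Each array gave 1 deposited value per row, used here as a score because the sources used here do not give the authors' scanner, background correction, normalization or log base. The values are read as log ratios, with per-array medians other than 0 of 0.00767, 0.0105 and 0.00998, and 10789 to 11483 rows with a value. Rows were named from the platform annotation: 13738 name 1 gene, 52 several and 2491 none. All 70 members matched RefSeq (GRCm38.p6) by gene number. Each array was centred on its median without zeros, rows of a gene were averaged, and limma 3.58.1 (R 4.3.3, lmFit and eBayes, prior degrees of freedom 5.55) tested the mean against 0, with Benjamini-Hochberg adjustment over 7235 genes, or over 9682 rows for the row fit. Python 3.11.15, pandas 2.3.3, numpy 2.4.6 and matplotlib 3.10.9 did the rest. The control pool is a single sample, so its spread is left out. The number of arrays limits the precision.

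Members, lists and tests were chosen with earlier results of these data known. Values by mouse were given for members past the threshold and for core genes of each step (receptors, adaptors, subunits, inhibitors), and for others where a row or mouse stood apart, chosen after their values were seen. Up to 6 genes with the smallest p were named from each of the 2 other lists, and Plau and Ccl2 as its only lower genes. On data simulated for this comparison (7235 genes), the fit called 98 of 100 genes shifted by 0.5, 12 of 100 shifted by 0.25 and 9 of 7035 with no shift. Errors in the simulation were drawn independently, unlike arrays that share a pool, and few genes were shifted.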

Additional observations from a re-analysis of the deposited data

How the results depend on the processing

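The alternatives were each mouse left out, no centring, zeros kept as values, rows measured on 2 or 3 arrays, the median of the nearest rows by number subtracted, arrays scaled to an equal spread, a robust variance prior, no moderation, 1 row per gene and, added after seeing the data, zeros kept on partly measured rows only and rows in crowded low stretches left out. Counts over all genes under these alternatives are not given here, so changed counts cannot be read as particular to the members or lists. With a mouse left out, member genes higher ranged from 1 to 4 and lower from 3 to 5, against 5 and 6. Member rows higher ranged from 2 to 5 and lower from 5 to 6, against 6 and 6. Other signalling genes higher ranged from 1 to 2 and lower from 3 to 5, against 1 and 4, and NF-kB target genes higher from 9 to 11 and lower from 1 to 2, against 12 and 2. Mouse 11 gave the lowest member count: without it only Tnfrsf12a was higher. The prior degrees of freedom were 24.9 without mouse 11, 8.07 without mouse 12 and 5.80 without mouse 13, so adjusted p-values of these refits are not on a common footing.

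All of these counts, members and both lists, were 0 with limma fitted without moderation, where 8 member genes were higher and 5 lower at an unadjusted p under 0.05, and 0 with zeros kept, where 12 were higher and 6 lower. The unadjusted row counts were 7 and 5, and 13 and 7. For other signalling genes they were 3 higher and 7 lower, and 4 and 7, and for NF-kB target genes 10 and 3, and 10 and 3. Keeping all zeros puts genes with no spread into the fit, and the prior degrees of freedom fell to 0.473. With zeros kept on partly measured rows, 1 member gene was higher, 1 member row was higher and 3 were lower, and 2 other signalling genes were lower. With rows on 2 or 3 arrays, 2 member genes and 3 member rows were higher. With the local median subtracted, 2 other signalling genes were higher. Every other count was within 1.5 times its main value. Traf2 turned from -0.29 to 0.017 with 1 row per gene. No other named gene turned sign with a call on either side. No paired analysis was possible because there is a single group of mice.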
